A study of Homo sapiens with 6 samples.

Results

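The genes described here are the nucleoporins, which build the nuclear pore, together with the receptors and the RAN cycle proteins that carry cargo through it. They were chosen by gene name among the protein-coding rows of the deposited table: NUP followed by a number, the KPNA and KPNB, IPO, TNPO and XPO genes, and RAN, RCC1, RANBP1, RANBP2, RANGAP1, TPR, SEH1L, RAE1, AHCTF1 and CSE1L. The rule gave 56 of the 58735 genes in the table, on 20 chromosomes. RNA was sequenced in HaCaT, an immortalised line of human skin keratinocytes labelled as wild type. There were 3 control samples and 3 samples treated for 48 h with dacomitinib, which blocks EGFR-family kinases irreversibly. Treatment began at 70% confluence and the series' design text attaches 0.1% DMSO to the treated group. Neither the dose nor the vehicle of the controls is given in the sources. No label says whether samples of a group were separate cultures, so the p-values rest on a spread between samples that may be technical only. The treated columns carry a letter that stands in no label and were assigned by elimination, so each direction below rests on that assignment.

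The nuclear pore is a channel through the nuclear envelope built from stacked rings of scaffold nucleoporins. Its centre is filled by nucleoporins with phenylalanine-glycine repeats, and filaments project into the cytoplasm and a basket into the nucleus. Importins bind cargo in the cytoplasm and release it in the nucleus on meeting RAN bound to GTP, whereas exportins bind cargo together with RAN-GTP and release it outside. The envelope is taken apart and rebuilt at each division of animal cells, and new pores are also inserted as the nucleus grows in interphase. EGFR signalling is a main driver of keratinocyte proliferation.

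Most of these genes were lower with dacomitinib. Of the 56 genes, 53 had a mean of at least 1 FPKM over the 6 libraries (FPKM, the deposited unit, which divides a gene's fragments by its length and by the library's size) and were tested. With limma on log2(FPKM + 1) and a Benjamini-Hochberg adjusted p under 0.05 over all 13748 genes tested, 50 fell, 0 rose and 3 did not pass. Among all genes tested 34.8% were called lower and 25.4% higher, and among the protein-coding ones 42.0% and 24.2%. The 3 dacomitinib libraries all lay below the 3 controls in the same 50 genes and above them in 1, KPNA5, against 38.2% and 28.9% of all genes tested and 46.0% and 27.8% of the protein-coding ones. None of the 53 tested genes was higher at an unadjusted limma p under 0.05 (0 genes), and limma-voom on recovered fragments called 1 higher, KPNA5. The median log2 difference, dacomitinib minus control, was -0.69 for the 53 genes and -0.06 for all genes tested, and the median level was 59.6% of control against 95.5%. In 15 of the 53 the fall was at least 2-fold in FPKM + 1, which 6.81% of all genes tested and 7.66% of the protein-coding ones reached. Because the RNA came from bulk cultures, fewer cells with a high level and less RNA per cell cannot be told apart.

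The count depends on how libraries are scaled to each other. Rescaled to TPM, where all libraries sum to the same total, 37 of the 53 fell and 5 rose, against 19.8% lower and 42.0% higher among all genes tested, and 23.8% and 42.5% among the protein-coding ones. With quantile normalization 43 fell and 1 rose, against 28.6% and 30.4% of all genes tested and 33.8% and 31.3% of the protein-coding ones. With TPM the median of all genes moved from -0.06 to 0.23, and that of the 53 genes from -0.69 to -0.42. With quantile normalization these medians were 0.02 and -0.49. Relative to the median of all genes, the median of the 53 was -0.63 with the deposited scaling, -0.66 with TPM and -0.51 with quantile normalization. The 37 genes that fell with TPM were also called lower with each of the other scalings tried (deposited, median-ratio, quantile, and TPM over nuclear genes). The genes whose call depended on the scaling are named with their role below. The count of 2-fold falls depended on it too. NUP188, NUP93, NUP155, NUP35 and NUP88 passed 2-fold as deposited but were at -0.86, -0.85, -0.82, -0.98 and -0.75 with TPM.

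**Figure D1:**
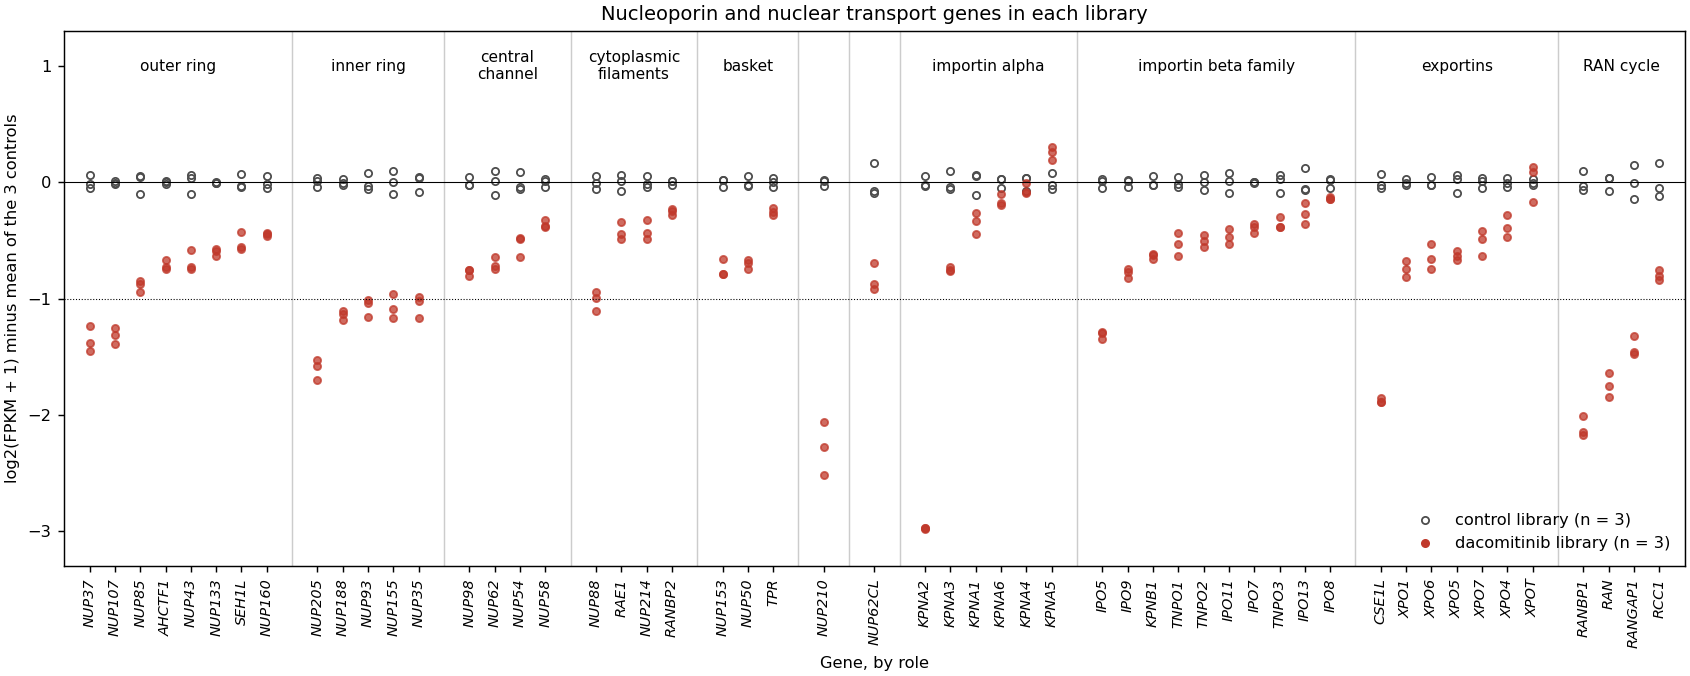
Each point is 1 library: the vertical axis is log2(FPKM + 1) minus the mean of the 3 controls for that gene, and the horizontal axis lists the 53 tested genes by role, with controls open and dacomitinib libraries filled. The dotted line marks a 2-fold fall; KPNA2 lies lowest at -2.98, and only KPNA4, KPNA5 and XPOT did not pass the test.

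Libraries held between 14960650 and 16179273 fragments on genes, and the tested genes described here had at least 444 fragments summed over the 3 libraries of a group. Pairs of libraries of one group correlated at 0.970 to 0.979 over genes, which are not independent, and pairs from different groups at 0.870 to 0.888. All 10 keratinocyte markers were measured, with a summed level of 1249 to 1323 FPKM in controls and 989.7 to 1188 with dacomitinib; 3 of them rose and 4 fell, but 5 rose and 2 fell with TPM, and 5 rose and 3 fell with quantile normalization. All 16 markers of cycling cells fell, from a summed 1232 to 1287 FPKM to 152.6 to 162.1 FPKM, with MKI67 at 87.2 ± 3.97 and 5.27 ± 0.530 FPKM (SD, n = 3). These markers move with every fall below, and their part in it was not tested. Of the markers of other cells, 1 of 8 for fibroblasts and 1 of 4 for endothelium reached the expression limit. These were COL3A1, at a mean of 0.705 FPKM in controls and 1.515 with dacomitinib, and CDH5, at 1.149 and 10.01 FPKM. Both were called higher, but COL3A1 did not pass with quantile normalization. COL3A1 reached the limit only through its dacomitinib libraries, so the limit favoured a rise. Below the limit, DCN went from 0.0197 to 0.897 FPKM, LUM from 0.00783 to 0.282 and VWF from 0.333 to 1.19. These were called higher without the limit, whereas PECAM1, COL1A1, VIM and PDGFRB were not called. The summed levels of the fibroblast and endothelial markers were 0.853 to 1.24 and 1.81 to 2.20 FPKM in controls. With dacomitinib they were 2.28 to 3.63 and 10.65 to 13.48 FPKM. PDGFRA, COL1A2 and KDR were at 0 in all libraries. The part of the fibroblast and endothelial markers in the results was not tested. None of the 5 melanocyte and none of the 4 immune markers reached the limit, with summed levels of 1.11 to 1.52 and 0.456 to 1.13 FPKM in controls and 2.07 to 2.45 and 0.564 to 1.05 FPKM with dacomitinib.

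Several of the genes with large falls carried a short promoter sequence, TTTGAA, named the cell cycle homology region. Through it the DREAM complex is known to repress cell cycle genes in resting cells, which was not tested here. TTTGAA was searched on both strands of the RefSeq promoter windows (build GRCh38.p14, 250 bases before to 50 after each start), where 48 of the 56 genes matched by symbol. Among tested genes with a window, 8 of 14 that fell at least 2-fold with the deposited scaling held it in at least 1 window, against 5 of 32 others. NUP210, IPO5, NUP107, NUP188, NUP155 and NUP88 fell at least 2-fold without it, and no window of RANBP1 was used. TTTGAA stood in 13.4% of 8506 protein-coding genes tested and in 23.8% of the 667 of them that fell at least 2-fold. The median log2 difference was -1.07 for the 13 genes with the letters and -0.54 for the 33 without. Some genes have several windows and so more chances of a match, and a match is no evidence of binding. The sites of the 8 genes are shown because they include the 3 transport factors with the highest control levels. Each is 30 bases, 5′ to 3′ on the strand that reads TTTGAA, which is in capitals.
KPNA2, chr17:68035755-68035784, plus strand: cgaggtggacccTTTGAAcgcagtcgccct
KPNA2, chr17:68035624-68035653, minus strand: cccattggtggaTTTGAAaaacacgttggg
CSE1L, chr20:49046320-49046349, plus strand: attttgccggggTTTGAAtgtgaggcggag
RAN, chr12:130872051-130872080, plus strand: gcgtctccggcgTTTGAAttgcgcttccgc
RANGAP1, chr22:41286199-41286228, plus strand: gaggaggaggatTTTGAAagccggcagttt
NUP37, chr12:102120163-102120192, plus strand: cctcccgcgaggTTTGAActgtattcagcg
NUP35, chr2:183124396-183124425, plus strand: gtttccgccattTTTGAAaattaattggga
NUP93, chr16:56783420-56783449, plus strand: gactaagattccTTTGAAactctgacccag
NUP93, chr16:56781839-56781868, minus strand: gtcagccatcagTTTGAAagcacaaactga
NUP205, chr7:135557740-135557769, plus strand: gccctcgccttaTTTGAAtgggaataatcc

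In RAN the motif began 3 bases before the RefSeq start, in RANGAP1 29, in NUP35 35, in NUP37 66 and in NUP205 165 bases before it. In CSE1L the motif began 20 bases after the start. The sites of KPNA2 began 99 bases before and 32 after it, and those of NUP93 24 before and 22 after their starts. The sites of NUP93 and NUP35 stand at RefSeq starts inside the annotated genes, which begin at bases 56730105 and 183117513. Use of these inner starts in HaCaT was not tested. The other 5 genes with the letters were IPO7, IPO11, NUP50, NUP98 and NUP153. CCAAT boxes (CCAAT on either strand, the site of the factor NF-Y) stood in 9 of the 14 genes with a 2-fold fall and in 12 of the 32 others, with 43.6% among protein-coding genes tested and 55.8% among those of them that fell at least 2-fold. E2F-like sites (on either strand TTCCCGC, or TTGGCGC, or TTCGCGC) stood in 5 of 14 (35.7%) and 12 of 32 (37.5%), with 22.3% among protein-coding genes tested and 35.7% among those of them that fell at least 2-fold. Windows for AHCTF1, KPNA4, KPNA5, KPNA7, KPNB1, NUP43, RANBP1 and XPO7 were not used here.

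All 4 genes of the RAN cycle fell, with a median log2 difference of -1.58 (-1.30 with TPM). RAN, the GTPase whose nuclear GTP-bound form sets the direction of transport (ENSG00000132341, chromosome 12, 130871879 to 130877678, GRCh38), was at 98.1, 98.2 and 90.8 FPKM in the controls and at 30.01, 25.95 and 27.64 FPKM with dacomitinib. Every treated library was below every control, and the log2 difference was -1.75 (SE 0.06, limma adjusted p = 3.28e-06). RANBP1, which helps RANGAP1 to switch RAN off as it leaves the nucleus (ENSG00000099901, chromosome 22, 20115938 to 20127357), was at 36.9, 33.0 and 33.9 FPKM and then at 7.82, 6.86 and 7.02 FPKM. That is 20.9% of the control mean and a log2 difference of -2.11 (SE 0.07, limma adjusted p = 1.94e-06). Of its exonic bases, 11.2% are shared with TRMT2A on the opposite strand or with a small RNA gene on its own strand, and strand use in the counting is not stated, so its value is uncertain. RANGAP1, the GTPase activating protein of the cycle, fell from 60.8 ± 6.29 to 22.0 ± 1.40 FPKM (SD, n = 3). RCC1, the chromatin-bound factor that loads GTP onto RAN in the nucleus, had the smallest fall, from 38.1 ± 4.11 to 21.4 ± 0.629 FPKM, at -0.80 (SE 0.08). Within the summed FPKM of the 4 genes, a share that does not depend on the scaling between libraries, RCC1 went from 16.6 ± 1.40% to 27.3 ± 0.482% and RANBP1 from 15.1 ± 0.760% to 9.21 ± 0.423%. The ratio of RANBP1 to RCC1 was 1.01, 0.943 and 0.791 in the controls and 0.354, 0.329 and 0.329 in the dacomitinib libraries, without overlap. RCC1 shares 6.22% of its exonic bases with SNHG3 on the same strand, so exonic overlap limits both genes of this ratio.

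The importin alpha adaptors, which read the classical nuclear localisation signal and tie cargo to importin beta, were the most uneven list. KPNA2, an adaptor known to be abundant in dividing cells (ENSG00000182481, chromosome 17, 68035519 to 68046842), was at 120.2, 112.8 and 114.0 FPKM in controls. With dacomitinib it was at 13.84, 13.78 and 13.85 FPKM. This was an 8.37-fold difference in mean FPKM, with a log2 difference of -2.98 (SE 0.04, limma adjusted p = 2.90e-07), the 39th largest fall of the 13748 genes tested. KPNA2 stood at rank 2 of the 53 genes by FPKM in controls and at rank 22 with dacomitinib.

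Of the other adaptors tested, 3 fell and 2 did not pass. KPNA3 fell from 29.6 ± 1.87 to 17.2 ± 0.249 FPKM (-0.75, SE 0.05), and KPNA1 from 13.2 ± 0.937 to 10.2 ± 0.718 FPKM (-0.35, SE 0.07), a call lost with TPM at -0.06, with quantile normalization at -0.16 and with TPM over nuclear genes at -0.24. Of the exonic bases of KPNA1, 16.3% are shared with a gene on the opposite strand, so its value is uncertain. KPNA6 was at 18.4, 19.4 and 19.4 FPKM in controls and 17.7, 16.8 and 16.6 FPKM with dacomitinib, at -0.16 (SE 0.05, limma adjusted p = 0.0243), and with TPM it rose instead, at 0.15. Its call was also lost with a replicate block (adjusted p = 0.0646) and when any of 4 libraries was left out, with an adjusted p of 0.0722 and 0.0662 without control 2 and control 3, and of 0.0671 and 0.0824 without dacomitinib 2 and dacomitinib 3. Over its alternatives the adjusted p ran from 0.00820 to 0.599. KPNA4 did not pass, at 25.2, 23.2 and 25.1 FPKM and then 22.9, 24.4 and 23.0 FPKM, with overlapping groups. Its log2 difference was -0.06 (95% interval -0.18 to 0.06), but with TPM it was 0.25 and with quantile normalization 0.16, both past the threshold. KPNA5 was at 1.02 ± 0.101 and 1.41 ± 0.0936 FPKM, a log2 difference of 0.25 that did not pass (95% interval -0.04 to 0.54) although the groups did not overlap. It passed with TPM, with voom and without the mean-variance trend, with adjusted p of 0.0056 to 0.508 over its alternatives.

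KPNA7, an adaptor known from eggs and early embryos, averaged 0.993 FPKM over the 6 libraries and so lay just below the expression limit. It had 5, 7 and 9 fragments in the controls and 45, 49 and 56 in the dacomitinib libraries, or 0.274 ± 0.0757 and 1.71 ± 0.153 FPKM. Without the limit its log2 difference was 1.09 (SE 0.13, limma adjusted p = 0.00167), higher in 3 of 3 treated libraries.

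Together these differences changed the make-up of the adaptor mRNAs within each library. KPNA2 made up 57.9%, 57.2% and 55.4% of the summed importin alpha FPKM in the controls and 16.5%, 15.9% and 16.5% with dacomitinib. KPNA4 went from 12.04 ± 0.255% to 27.7 ± 0.489%, KPNA6 from 9.39 ± 0.503% to 20.1 ± 0.933% and KPNA3 from 14.6 ± 0.813% to 20.3 ± 0.0648% (SD, n = 3). KPNA7 held 0.135 ± 0.0370% and 2.02 ± 0.182%. KPNA4 was thus the leading adaptor mRNA with dacomitinib. The ratio of KPNA2 to KPNA4 was between 4.53 and 4.87 in controls and between 0.565 and 0.603 in the treated libraries. These shares and ratios are given as values and were not tested.

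**Figure D2:**
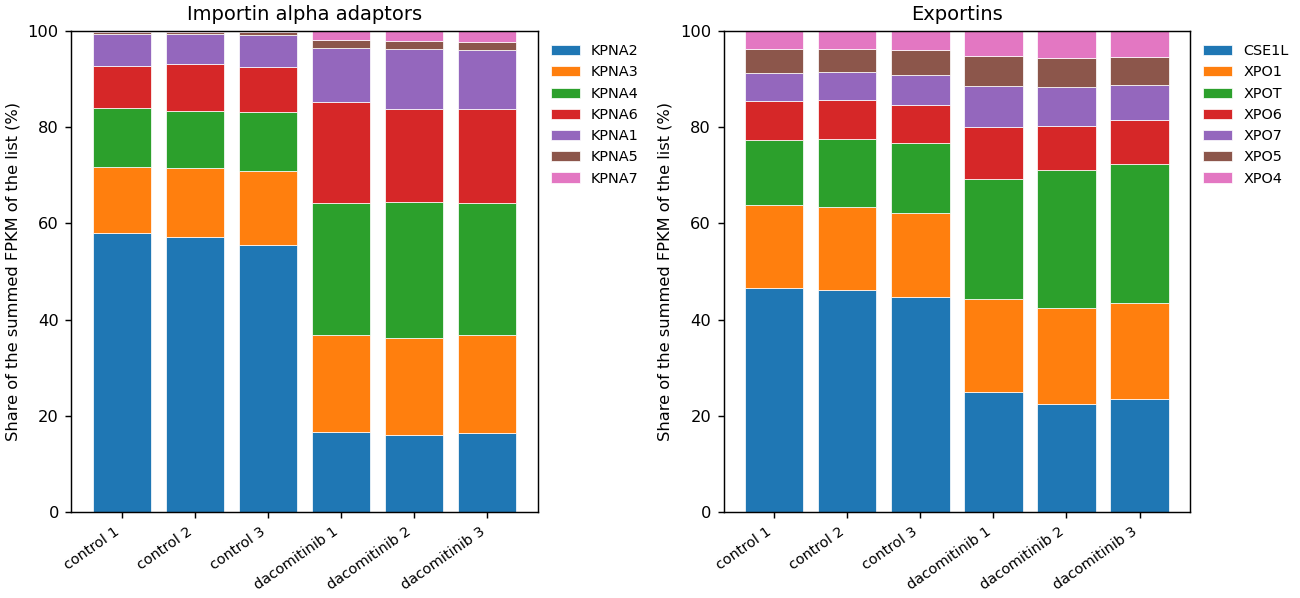
Stacked bars give each gene's share, in percent, of the summed FPKM of its list in each of the 6 libraries, for the importin alpha adaptors and the exportins. KPNA2 drops from between 55.4% and 57.9% in controls to between 15.9% and 16.5%, and CSE1L from between 44.7% and 46.6% to between 22.5% and 24.8%.

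Among the exportins 6 of 7 fell and 1 did not pass, with a median log2 difference of -0.63 (-0.36 with TPM, where 5 fell and 1 rose). CSE1L, which returns importin alpha to the cytoplasm (ENSG00000124207, chromosome 20, 49046246 to 49096960), had the highest control level of all 53 genes, at 147.5, 138.7 and 136.1 FPKM. It was at 38.1, 37.3 and 37.3 FPKM with dacomitinib, a log2 difference of -1.88 (SE 0.04, limma adjusted p = 7.57e-07). Both this exportin and its cargo KPNA2 fell, and the ratio of KPNA2 to CSE1L was 0.813 to 0.837 in controls and 0.363 to 0.371 with dacomitinib.

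XPO1, the exportin for proteins with a leucine-rich export signal, fell from 53.2 ± 1.07 to 31.4 ± 1.61 FPKM (-0.74, SE 0.05), and XPO6, which exports actin, from 24.6 ± 0.768 to 15.4 ± 1.24 FPKM (-0.64, SE 0.06). XPO5, which carries microRNA precursors, and XPO7 fell by 0.63 and 0.51 on the log2 scale, and XPO4 by 0.38, a call lost with TPM. XPOT, the exportin for transfer RNA, did not pass. It was at 43.0, 42.6 and 44.3 FPKM in controls and at 38.5, 47.6 and 46.1 FPKM with dacomitinib, so that 1 treated library lay below all controls and 2 above. The log2 difference was 0.02 (95% interval -0.18 to 0.21) and 0.33, past the threshold, with TPM. Its sign turned without dacomitinib replicate 2 or 3. The share of XPOT in exportin FPKM went from 14.1 ± 0.471% to 27.6 ± 2.23%, while CSE1L went from 45.8 ± 1.00% to 23.6 ± 1.16%. The ratio of CSE1L to XPOT was 3.07 to 3.43 in controls and 0.785 to 0.991 with dacomitinib.

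All 10 tested import receptors of the importin beta family fell, with a median of -0.49, but only 5 fell and 1 rose with TPM. IPO5, which carries histones and ribosomal proteins, was at 48.9, 46.4 and 48.3 FPKM in controls and 18.1, 19.0 and 18.9 FPKM with dacomitinib, at -1.31 (SE 0.04, limma adjusted p = 2.07e-06). It was the single gene of the list with a 2-fold fall. IPO9, a carrier of core histones, fell from 17.8 ± 0.409 to 9.94 ± 0.308 FPKM (-0.78, SE 0.05). KPNB1, the partner of the importin alpha adaptors, fell from 61.5 ± 1.98 to 39.3 ± 0.609 FPKM (-0.63, SE 0.04). The ratio of KPNB1 to KPNA2 went from 0.502 to 0.559 in the controls to 2.79 to 2.87 in the treated libraries.

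TNPO1 and TNPO2, which import RNA-binding proteins such as hnRNPs, fell by 0.53 and 0.50 on the log2 scale. IPO7, a carrier of ribosomal proteins, fell from 83.7 ± 0.419 to 63.6 ± 1.79 FPKM (-0.39, SE 0.04) and was the most abundant of all 53 mRNAs per length with dacomitinib. With TPM its difference was -0.08 and did not pass, and the calls of IPO11 and TNPO3, the receptor of SR splicing factors, were lost as well, that of TNPO3 also with quantile normalization at -0.14. Of the exonic bases of IPO11, 22.6% are shared with KIF2A and LRRC70 on the same strand, so its value is uncertain. IPO13 fell from 10.2 ± 0.821 to 8.29 ± 0.566 FPKM (-0.27, SE 0.07, limma adjusted p = 0.0174), at 0.02 with TPM, and did not pass with quantile normalization (-0.11) or TPM over nuclear genes (-0.16) either. Leaving out dacomitinib 3 ended its call, at an adjusted p of 0.0586, and its alternatives ranged from 0.00329 to 0.880. IPO8 was at 18.4, 19.3 and 19.4 FPKM and then at 17.4, 17.2 and 17.1 FPKM, the smallest difference of the list, -0.14 (SE 0.04, limma adjusted p = 0.0256), and rose with TPM, at 0.17. Its call was lost with a replicate block (adjusted p = 0.0635) and in the absence of the same 4 libraries, with an adjusted p of 0.0736 and 0.0681 for the controls and of 0.0630 and 0.0775 for the treated libraries. Over its alternatives the adjusted p ran from 0.0176 to 0.888. IPO4, another histone carrier, was below the expression limit, with 16, 10 and 4 fragments in the controls and 3, 0 and 6 with dacomitinib. Of its exonic bases 70.1% are shared with other annotated genes, so its level is uncertain.

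**Figure D3:**
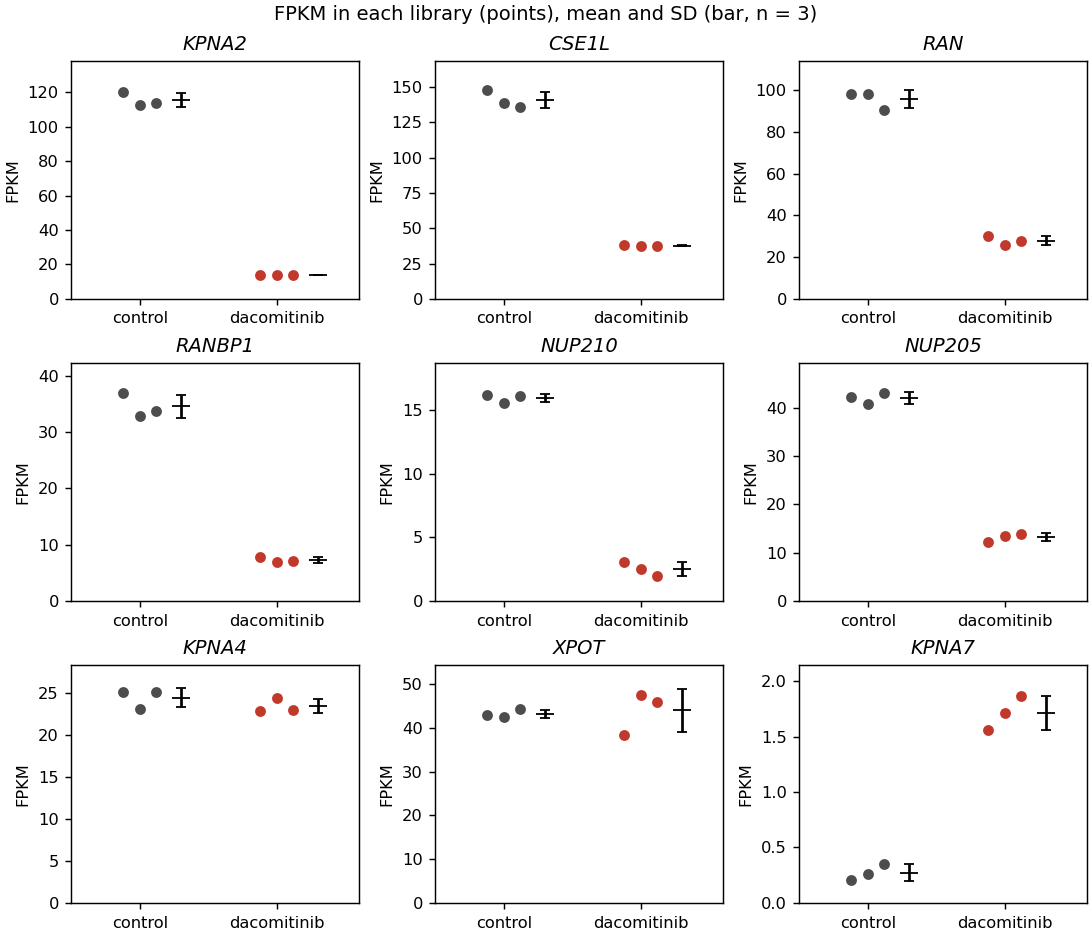
FPKM of 9 genes in each library (points) with the mean and SD of the 3 libraries of a group (bar), on axes that start at 0. The groups do not overlap for KPNA2, CSE1L, RAN, RANBP1, NUP210, NUP205 and KPNA7, and they overlap for KPNA4 and XPOT.

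All 26 tested nucleoporin genes fell with the deposited scaling, with a median log2 difference of -0.73, and 21 of them fell and 0 rose with TPM (median -0.45). The inner ring, the scaffold that lines the pore membrane, had the lowest median among the ring, channel, filament and basket lists, at -1.07 (-0.86 with TPM). All 5 of its genes fell at least 2-fold with the deposited scaling. With TPM only NUP205 did, at -1.34, and the others were at -0.98 to -0.82. NUP205, one of its large scaffold proteins (ENSG00000155561, chromosome 7, 135557919 to 135648757), was at 42.3, 40.8 and 43.1 FPKM in controls and 12.2, 13.4 and 13.9 FPKM with dacomitinib. The groups lay far apart, with a log2 difference of -1.60 (SE 0.06, limma adjusted p = 2.85e-06). NUP188, its paralogue, fell from 45.4 ± 0.956 to 19.99 ± 0.586 FPKM (-1.14, SE 0.04), so that the ratio of NUP205 to NUP188 went from 0.916 to 0.939 in controls to 0.597 to 0.693. NUP93, which anchors the channel nucleoporins, fell from 13.2 ± 0.744 to 5.74 ± 0.355 FPKM. NUP155 and NUP35, which touch the membrane, fell by 1.07 and 1.06 on the log2 scale.

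All 8 genes of the outer ring, the Y-shaped scaffold complex, fell with the deposited scaling, with TPM and with quantile normalization, at a median of -0.70 (-0.43 with TPM). NUP37 was at 16.8, 15.9 and 15.5 FPKM and then 6.23, 5.56 and 5.25 FPKM, at -1.36 (SE 0.07). NUP107 was at 17.1, 17.0 and 17.3 FPKM and then 6.30, 6.62 and 5.92 FPKM, at -1.32 (SE 0.05). These 2 fell at least 2-fold, whereas NUP133 and NUP160, scaffold arms of the same complex, fell by 0.60 and 0.45. NUP85 fell from 11.4 ± 0.738 to 5.69 ± 0.221 FPKM (-0.89, SE 0.06). AHCTF1, which recruits the complex to chromatin as pores form after mitosis, fell from 23.2 ± 0.227 to 13.8 ± 0.425 FPKM, and the remaining SEH1L and NUP43 by 0.52 and 0.69. Of the summed outer ring FPKM, NUP107 held 13.7 ± 0.119% in controls and 9.15 ± 0.313% with dacomitinib, and NUP160 13.9 ± 0.506% and 18.1 ± 0.255%.

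In the central channel, NUP98, NUP62 and NUP54 fell by 0.77, 0.70 and 0.54 on the log2 scale. NUP98, whose mRNA also encodes a Y complex subunit, went from 40.7 ± 1.13 to 23.4 ± 0.530 FPKM. Of the exonic bases of NUP62, 21.1% are shared with other genes, among them IL4I1 and ATF5, so its value is uncertain. NUP58 had the smallest fall, from 16.8 ± 0.471 to 12.9 ± 0.291 FPKM (-0.36, SE 0.04), a call lost with TPM at -0.07.

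All 4 genes of the cytoplasmic filaments and mRNA export platform fell, at a median of -0.42 (-0.14 with TPM, where 1 fell), and all 3 of the nuclear basket, at -0.70 (-0.42 with TPM, where 2 fell). NUP88, which holds the mRNA export platform, was at 22.8, 21.9 and 21.1 FPKM and then 10.9, 10.5 and 9.67 FPKM, at -1.01 (SE 0.06, limma adjusted p = 1.84e-05). Of its exonic bases 18.7% are shared with genes on the opposite strand. NUP214, the partner of NUP88, and RAE1, an mRNA export factor, fell by 0.41 and 0.42 on the log2 scale, and both calls were lost with TPM. RANBP2, the main filament protein, was at 25.4 ± 0.332 and then at 21.2 ± 0.370 FPKM, without overlap, at -0.25 (SE 0.04). It did not pass with TPM (0.05), quantile normalization (-0.03) or TPM over nuclear genes (-0.13). Near-identical copies of RANBP2 exist in the genome, so its reads may have been divided. NUP153 and NUP50 of the basket fell by 0.75 and 0.70. TPR, the basket's long coiled-coil protein, was at 29.1, 28.3 and 29.9 FPKM and then 23.7, 24.2 and 24.8 FPKM, at -0.25 (SE 0.04). Its call too was lost with TPM (0.05), quantile normalization (-0.04) and TPM over nuclear genes (-0.13). Within the basket list TPR held 37.2 ± 0.103% of the FPKM in controls and 45.6 ± 1.23% with dacomitinib, and within the filament list RANBP2 held 35.4 ± 0.532% and 43.0 ± 1.44%.

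NUP210, a nucleoporin that spans the pore membrane (ENSG00000132182, chromosome 3, 13316235 to 13420309), had the second largest fall of the 53 genes. It was at 16.2, 15.5 and 16.1 FPKM in controls and at 3.06, 2.48 and 1.96 FPKM with dacomitinib, 15.7% of the control mean. The log2 difference was -2.28 (SE 0.11, limma adjusted p = 1.02e-05) and -2.27 with TPM. Its ratio to NUP133 went from between 0.756 and 0.781 to between 0.145 and 0.230. Its paralogue NUP210L was below the expression limit, with 2, 5 and 11 fragments in controls and 19, 23 and 27 with dacomitinib, and without the limit its difference was 0.20 (SE 0.06, limma adjusted p = 0.0457). NUP62CL, a relative of NUP62 on the X chromosome, fell from 14.3 ± 1.57 to 7.63 ± 0.701 FPKM (-0.83, SE 0.09).

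**Figure D4:**
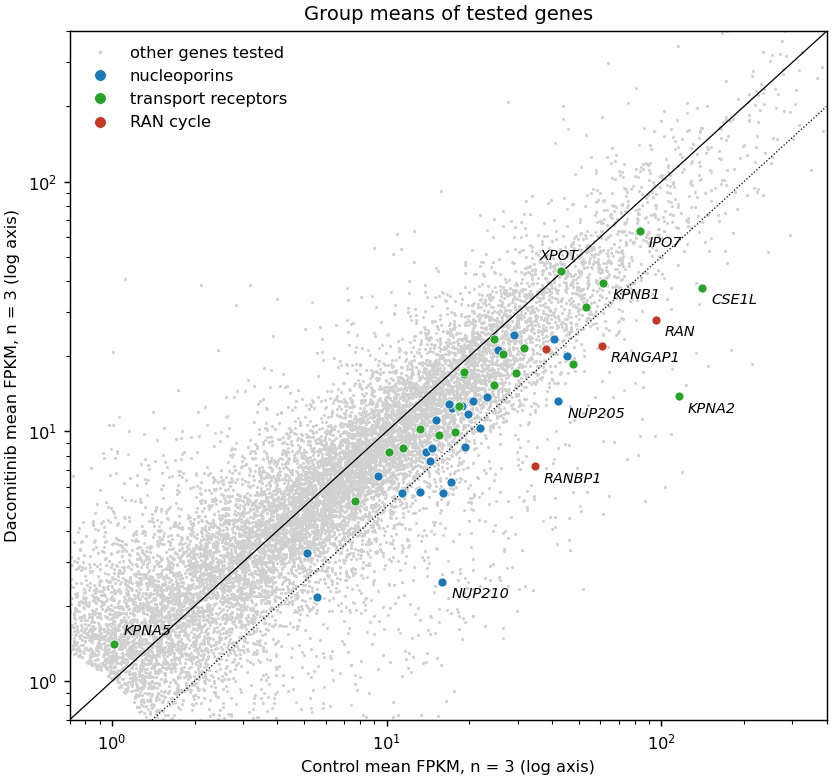
Mean FPKM of the 3 dacomitinib libraries against the mean of the 3 controls, both on log axes, for the genes described here (coloured by role) and all other tested genes (grey). The solid line marks equal means and the dotted line a 2-fold lower mean; KPNA2, RANBP1 and NUP210 lie farthest below it, and XPOT lies on the line of equality.

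Across the 53 genes the size of the fall was weakly related to the control level (Spearman rho -0.30, higher genes falling more) and to gene length (rho 0.36, longer genes falling less). Both are descriptions over genes that share the same 6 libraries, and level and length are both parts of FPKM.

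Other genes of nuclear transport, outside the naming rule, were taken from a list of 40, of which 39 were tested. Of these 29 fell, 2 rose and 8 did not pass, with a median of -0.44 (18 fell and 7 rose with TPM, at -0.18). Among all genes tested 34.8% were lower and 25.4% higher, and with TPM 19.8% and 42.0%, at medians of -0.06 and 0.23. Among the protein-coding ones these shares were 42.0% and 24.2%, and 23.8% and 42.5% with TPM. ALYREF, an adaptor that loads mRNA onto its exporter, was at 40.3, 34.9 and 39.8 FPKM and then 9.23, 9.65 and 9.16 FPKM, at -1.92 (SE 0.06). DDX39A, an RNA helicase of mRNA export, fell from 20.1 ± 1.61 to 5.39 ± 0.618 FPKM, and NDC1, a membrane nucleoporin, from 38.0 ± 1.38 to 12.8 ± 0.890 FPKM. DDX39B, the close relative of DDX39A, rose from 19.4 ± 0.774 to 23.5 ± 1.196 FPKM (0.27, SE 0.05). SENP2, a SUMO protease that binds the pore, rose from 13.4 ± 0.243 to 16.7 ± 0.519 FPKM (0.30, SE 0.04). NUPL2, a filament nucleoporin that the rule misses because the table uses its older symbol, did not pass, at 9.41 ± 1.05 and 8.83 ± 0.230 FPKM (-0.08, 95% interval -0.27 to 0.11).

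**Figure D5:**
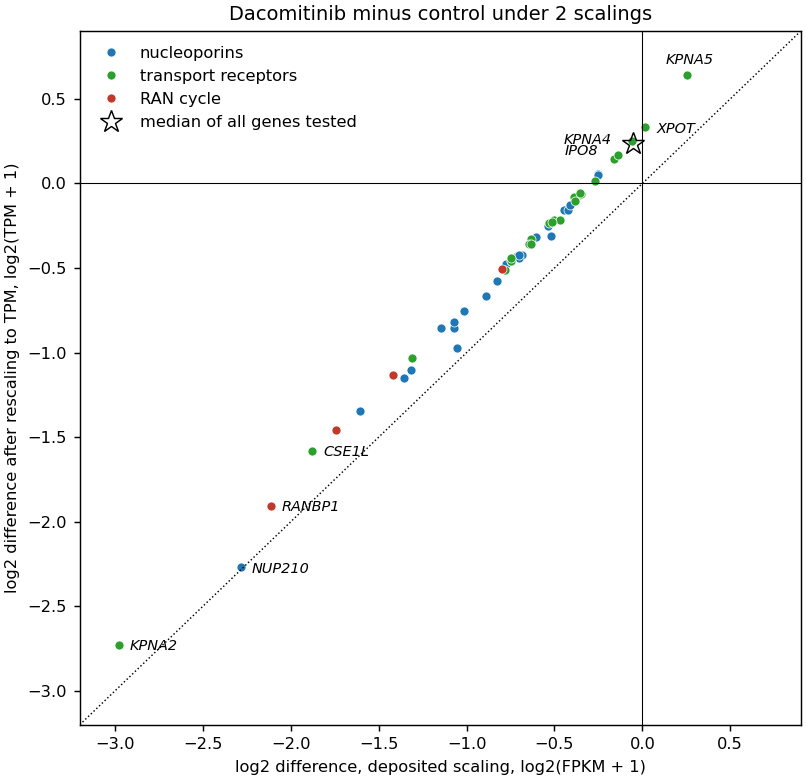
Log2 differences, dacomitinib minus control, of the 53 genes with the deposited scaling (horizontal axis) and after rescaling to TPM (vertical axis), coloured by role; the dotted line marks equal values and the star the median of all tested genes, -0.06 and 0.23. KPNA2, NUP210, RANBP1 and CSE1L are far below 0 on both axes, while KPNA4, KPNA6, IPO8, IPO13, RANBP2 and TPR are below 0 on the first and above 0 on the second.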

How the data were processed

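RNA from 6 HaCaT samples was sequenced. The authors deposited FPKM per gene and library. The tools listed, per the submitters' processing notes, are HISAT2, featureCounts, fastp, CASAVA and DESeq2 1.20.0, on build GRCh38, with no role stated. The other column used is the authors' gene length in bases, per the file header. All 58735 identifiers were found in GENCODE release 29.

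Fragments were recovered from the steps of FPKM times length, and 100% of values came out whole within 0.01. The authors' library size was 0.946 to 0.954 times the recovered sum in controls and 1.045 to 1.093 times with dacomitinib, so a scaling between libraries preceded deposit.

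limma 3.58.1 (R 4.3.3, mean-variance trend) was run on log2(FPKM + 1) for genes with a mean of at least 1 FPKM, and adjusted over all of them. That scale understates changes of low genes. The procedure was run on simulated data with far fewer changed genes than differ here, so that run does not test the scaling. Figures and shares used Python 3.11.15. Exonic overlap came from GENCODE and promoters from RefSeq. Strand is not stated for the counting.

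The genes and lists were chosen with earlier results of these data known. In each role list the text names up to 3 falls and 3 rises past the threshold, every 2-fold change, the smallest difference and all genes below the limit; further genes were named after their values were seen. Dacomitinib libraries are numbered as in the deposited columns, which name the group but not the sample. Alternatives covered pseudocount, filter, scaling, limma settings, voom, a replicate block and leaving out each library.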

Additional observations from a re-analysis of the deposited data

How the results depend on the processing

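Of the 50 genes that fell, 37 kept their call and direction in all 18 alternatives that test them, 43 in the 17 without TPM, and 47 whenever any 1 library was left out. The genes lower stayed within 1.5 times the reported 50 in each alternative. Genes higher, 0 as reported, were 2 without a filter (KPNA7 and NUP210L), 5 with TPM, 1 with quantile normalization, 1 without the trend, 1 with voom and 0 to 1 with a library left out. The median log2 difference, -0.69, was -0.74 at a pseudocount of 0.1, -0.64 without a filter, -0.42 with TPM, -0.60 with TPM over nuclear genes (added after seeing the data), -0.49 with quantile normalization, -0.76 with voom and -0.70 to -0.65 with a library left out.

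With TPM, calls lower were 1 of 4 for the filament list, 2 of 6 for importin alpha, 5 for importin beta and 18 for the 39 other transport genes. Calls higher were 3 for importin alpha, 1 for importin beta, 1 for exportins and 7 for the other transport genes. Of all genes tested 19.8% were lower and 42.0% higher with TPM. The filament count lower and the importin alpha count higher lie near these shares. The importin alpha list, 4 lower and 0 higher as reported, also had 2 lower with TPM over nuclear genes and with quantile normalization. It had 1 higher without a filter, with quantile normalization, without the trend and with voom, and 0 to 1 with a library left out, and its median was 0.044 with TPM. The membrane ring list had 1 higher without a filter. Other transport genes higher, 2 as reported, were 4 with quantile normalization. Their median, -0.44, was -0.50 and -0.48 at pseudocounts of 0.1 and 0.5, -0.48 at a mean of at least 5 FPKM, -0.18 with TPM, -0.36 with TPM over nuclear genes, -0.30 with quantile normalization, -0.51 with voom and -0.46 to -0.40 with a library left out. Of all genes tested, 3493 were higher, against 1946 at a mean of at least 5 FPKM and 5779 with TPM, and 4778 were lower, against 2721 with TPM.

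Signs turned with TPM for KPNA6 (0.15), TPR (0.053), IPO13 (0.017), IPO8 (0.17), RANBP2 (0.054) and KPNA4 (0.25), with quantile normalization for KPNA6 (0.081), IPO8 (0.10) and KPNA4 (0.16), with TPM over nuclear genes for KPNA4 (0.072), and for XPOT, at -0.040 to 0.11 with a library left out. Mitochondrial genes held 27.1% to 28.8% of the FPKM sum in controls and 18.3% to 18.9% with dacomitinib, which enters the TPM scaling. The numbers of the dacomitinib libraries are those of the deposited columns, which were not matched to single samples. Taken at face value, same-numbered libraries deviated with correlations of -0.02 to 0.04, which gives no sign of pairing. With a replicate block on these numbers 48 genes fell and 0 rose, and 7883 of all genes differed. The 2 planned count-model tests were left out because the deposited unit is FPKM, although fragments could be recovered. Voom was run on the recovered fragments instead. The depth leaves KPNA7, NUP210L and IPO4 with few fragments.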
